A study of Mus musculus with 6 samples.

Results

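The metalloproteinases and their inhibitors were followed in gonadal white adipose tissue (GWAT) of *ob/ob/Fsp27-/-* and *ob/ob* mice. The set holds every gene whose symbol is Mmp, Adam, Adamts or Timp followed by a digit, read through the probesets that carry 1 gene symbol, with the probeset of highest mean standing for each gene. It comes to 78 of the 19937 genes measured: 22 Mmp, 34 Adam, 18 Adamts and 4 Timp genes. The comparison asks how loss of Fsp27, a lipid droplet protein, changes gene expression in the fat of leptin-deficient mice.

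All mice were chow-fed males aged 4 months on a C57BL/6J background, and both genotypes lack leptin (*ob/ob*), so no lean or leptin-sufficient mouse enters the comparison. *ob/ob/Fsp27-/-* mice carry a germline deficiency of Fsp27 in addition, which is therefore absent from every tissue and not from fat alone. RNA of 3 mice was pooled for each array after the study's methods, with 3 arrays and 9 mice per genotype, and a 2-round amplification came before labelling. Arrays are called 1, 2 and 3 within a genotype, which pairs no samples across genotypes. The p-values measure only how far pools differ and say nothing of how single mice do. The values are Robust Multi-array Average (RMA) values of GeneChip Mouse Gene 1.0 ST arrays on the log2 scale, and a fold change is *ob/ob/Fsp27-/-* minus *ob/ob*. A gene was called where limma's adjusted p was under 0.05 and its log2 fold change was 0.5 or more in either direction.

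Matrix metalloproteinases (Mmp) are zinc-dependent enzymes that cut collagens, elastin, proteoglycans and other proteins outside the cell, and most are made as inactive precursors. The Adam proteins are membrane-bound relatives that release the outer parts of receptors, cytokines and adhesion molecules from the cell surface, although several Adam proteins have lost the catalytic residues. Adamts proteins are secreted, carry thrombospondin repeats and act on proteoglycans and procollagens, and the Timp proteins are the tissue inhibitors that bind the active site of these enzymes. In growing fat depots these families are known for matrix turnover around adipocytes and vessels, and several members are products of macrophages.

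The tissue label was checked on adipocyte genes, which lay far up the scale in all arrays: *Adipoq* (adiponectin) read 12.28, 12.32 and 12.48 in *ob/ob/Fsp27-/-* GWAT and 10.59, 11.22 and 11.68 in *ob/ob* GWAT. *Cidec*, the gene of Fsp27, read 11.34, 11.51 and 11.53 in *ob/ob/Fsp27-/-* GWAT and 11.49, 11.78 and 11.98 in *ob/ob* GWAT, and was not called, so its probeset gives no check of the genotype labels. Pairwise correlations over the 22961 probesets with a gene symbol were 0.988 to 0.994 within a genotype and 0.943 to 0.965 between genotypes. Array 1 of *ob/ob/Fsp27-/-* and array 2 of *ob/ob* stood apart from the other arrays of their genotypes in *Mmp7* and a group of epithelial genes, and array 1 of *ob/ob* had the lowest mean of the adipocyte markers, 10.83 against 11.28 and 11.51 in arrays 2 and 3 of *ob/ob*. Results that rest on these arrays are given with and without them.

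In *ob/ob/Fsp27-/-* GWAT 19 of the 78 genes were lower and 3 were higher than in *ob/ob* GWAT, and 56 were not called. As a share this is 24.4% lower and 3.85% higher, beside 10.8% and 9.58% of all genes measured. The arrays of the 2 genotypes did not overlap in 35 of the 78 genes, beside 46.0% of all genes. By family, 7 of 22 Mmp, 7 of 34 Adam, 3 of 18 Adamts and 2 of 4 Timp genes were lower. The 3 higher genes were *Mmp28*, *Adam12* and *Adamts9*, and 0 of 4 Timp genes were higher. The median log2 fold change was -0.06 over the Mmp, 0.00 over the Adam, -0.07 over the Adamts and -0.57 over the Timp genes, against 0.06 over all genes. Of the 34 members whose mean was above the median of all values, 6.07, 14 were lower and 3 higher, beside 1908 lower and 1765 higher of 11332 such genes in all. Of the 44 members below it 5 were called, beside 395 of 8605 genes in all. Of the 19 lower genes 9 had a log2 fold change of -1 or below, and of the 3 higher genes 1 reached 1 or more. The plot of all 78 fold changes shows them beside the uncalled genes.

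**Figure D1:**
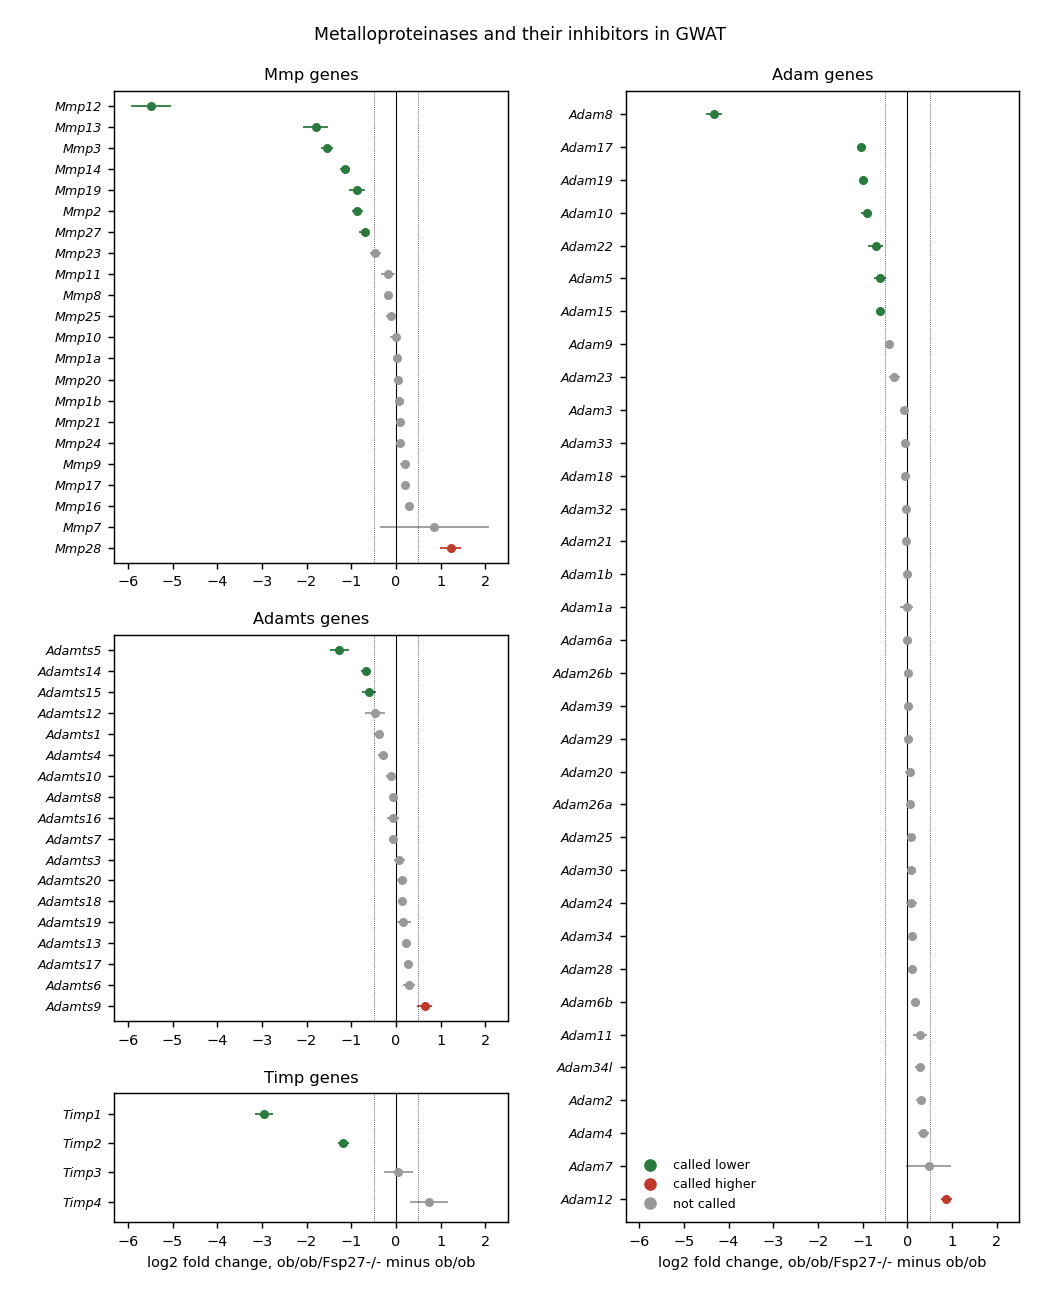
Log2 fold change (*ob/ob/Fsp27-/-* minus *ob/ob*, 3 arrays each) of all 78 members by family, with bars for the standard error of the fit. Dotted lines mark the fold threshold of 0.5 in size, green points are called lower, red points called higher and grey points not called. *Mmp12* at -5.49 and *Adam8* at -4.33 lie farthest to the left, and *Mmp7* has the widest bar.

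Of the 22 Mmp genes, 10 lie in a single block on mouse chromosome 9, in the order *Mmp13*, *Mmp12*, *Mmp1b*, *Mmp3*, *Mmp1a*, *Mmp10*, *Mmp8*, *Mmp27*, *Mmp20* and *Mmp7*. The block holds the gene with the largest decrease and genes that were not called. The 120 bases before the annotated starts are therefore shown for its 4 lower genes. For contrast they are also shown for the uncalled *Mmp10* and for the upstream start of the uncalled *Mmp7*. Capitals mark exact matches, on either strand, to the AP-1 motif TGAGTCA and to GGAAGT, a core bound by Ets proteins and PU.1. Sequences are RefSeq promoter windows of GRCm38.p6, written 5′ to 3′ in the direction of the gene.
*Mmp12*, upstream start, chr9:7344277-7344396, plus strand: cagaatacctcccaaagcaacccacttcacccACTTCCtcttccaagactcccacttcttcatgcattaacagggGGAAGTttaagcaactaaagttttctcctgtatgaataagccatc
*Mmp12*, downstream start, chr9:7347254-7347373, plus strand: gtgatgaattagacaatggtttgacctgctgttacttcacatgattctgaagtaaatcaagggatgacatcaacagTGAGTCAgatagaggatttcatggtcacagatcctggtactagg
*Mmp13*, chr9:7272394-7272513, plus strand: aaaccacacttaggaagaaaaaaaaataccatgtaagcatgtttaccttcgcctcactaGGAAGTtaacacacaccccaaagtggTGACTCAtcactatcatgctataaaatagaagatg
*Mmp3*, chr9:7445702-7445821, plus strand: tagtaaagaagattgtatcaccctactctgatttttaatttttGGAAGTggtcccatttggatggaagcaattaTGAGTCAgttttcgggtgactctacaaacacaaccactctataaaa
*Mmp27*, chr9:7571276-7571395, plus strand: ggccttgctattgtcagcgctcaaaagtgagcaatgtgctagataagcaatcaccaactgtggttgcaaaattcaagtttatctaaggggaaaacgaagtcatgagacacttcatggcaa
*Mmp10*, chr9:7502222-7502341, plus strand: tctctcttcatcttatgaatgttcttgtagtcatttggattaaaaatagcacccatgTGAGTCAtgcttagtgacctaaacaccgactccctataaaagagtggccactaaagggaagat
*Mmp7*, upstream start, chr9:7691970-7692089, plus strand: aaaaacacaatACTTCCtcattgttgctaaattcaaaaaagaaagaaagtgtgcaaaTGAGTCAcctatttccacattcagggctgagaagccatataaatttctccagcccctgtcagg
Within this block, *Mmp13* and *Mmp3* had a GGAAGT and an AP-1 match in the same window, *Mmp12* had GGAAGT before its upstream start and AP-1 before its downstream start, and *Mmp27* had neither motif in its window. *Mmp10* and *Mmp7*, not called, had the AP-1 match at the same place, from -63 to -57 relative to the start. The upstream window of *Mmp7* also held a GGAAGT match, from -109 to -104, and so had both motifs. Uncalled *Mmp1a*, not shown, had both motifs too, AP-1 from -73 to -67 and GGAAGT from -19 to -14. Uncalled *Mmp1b*, not shown, had AP-1 from -93 to -87. The 120 bases before the downstream start of *Mmp7*, not shown, had neither motif. *Mmp8* and *Mmp20*, also uncalled and not shown, had no AP-1 match. Over the full windows of 300 bases, the AP-1 motif was found for 7 of the 10 genes of the block and for 0 of 7 Mmp genes elsewhere, beside 5.95% of the 27025 genes with a window in the table. GGAAGT was found for 6 of these 10 genes and for 26.5% of all genes with a window. Among Mmp genes with a window, AP-1 was in 3 of 5 lower and 4 of 11 uncalled genes. A match is a string of letters and no measure of binding, and 48 of the 78 members had a window.

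*Mmp12* (macrophage elastase, an enzyme of macrophages that cuts elastin) had the largest decrease of the set. It read 5.66, 6.72 and 7.56 in *ob/ob/Fsp27-/-* GWAT, against 12.41, 12.22 and 11.76 in *ob/ob* GWAT. The genotypes were more than 4 log2 units apart at their nearest arrays, and the *ob/ob/Fsp27-/-* arrays were themselves spread (SD 0.95, against 0.34 in *ob/ob*, n = 3 each). The log2 fold change was -5.49 ± 0.44 (SE, adjusted p = 0.000227), a 44.8-fold difference. It was also the most negative fold change among all 19937 genes.

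*Mmp13*, a collagenase, read 4.52, 5.23 and 4.50 in *ob/ob/Fsp27-/-* GWAT and 7.09, 6.34 and 6.21 in *ob/ob* GWAT, with a log2 fold change of -1.79 ± 0.28 (adjusted p = 0.00326). *Mmp3* (stromelysin 1, which cuts proteoglycans and activates other Mmp precursors) read 4.73, 4.94 and 4.87 in *ob/ob/Fsp27-/-* GWAT and 6.12, 6.60 and 6.47 in *ob/ob* GWAT, a log2 fold change of -1.55 ± 0.14 (adjusted p = 0.000302). *Mmp27* read 4.51, 4.54 and 4.22 in *ob/ob/Fsp27-/-* GWAT and 5.15, 5.27 and 4.97 in *ob/ob* GWAT, with -0.70 ± 0.12 (adjusted p = 0.00485). In each of these 3 genes all *ob/ob/Fsp27-/-* arrays lay below all *ob/ob* arrays. Their means were below the median of all values, where signal over background is small. *Mmp27* missed the fold threshold, at -0.49, when arrays were centred on housekeeping genes.

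The other 6 genes of the block were not called. *Mmp1a*, *Mmp1b*, *Mmp8*, *Mmp10* and *Mmp20* had means from 3.39 to 4.94, with log2 fold changes between -0.17 (*Mmp8*, neutrophil collagenase) and 0.07 (*Mmp1b*). *Mmp1a* and *Mmp1b* are near copies whose probes may share signal, and their separate values are uncertain. In the plot in gene order the lower genes *Mmp13* and *Mmp12* stand side by side, and *Mmp3* and *Mmp27* have uncalled neighbours on either side.

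**Figure D2:**
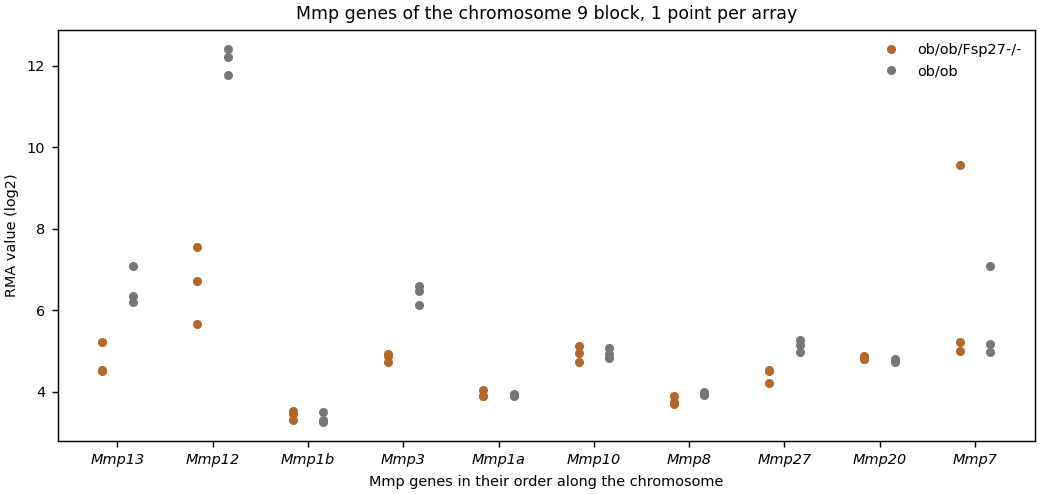
RMA values (log2) of the 10 Mmp genes of the chromosome 9 block in their order along the chromosome, with *ob/ob/Fsp27-/-* arrays left of *ob/ob* arrays for each gene and 1 point per array. *Mmp12* reads 5.66 to 7.56 in *ob/ob/Fsp27-/-* GWAT and 11.76 to 12.41 in *ob/ob* GWAT, and single arrays stand out in *Mmp7*.

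*Mmp7* (matrilysin, an enzyme of epithelia) varied more between arrays of a genotype than between the genotype means. It read 9.56, 5.22 and 5.00 in *ob/ob/Fsp27-/-* GWAT and 5.17, 7.08 and 4.97 in *ob/ob* GWAT. Array 1 of *ob/ob/Fsp27-/-* was high, array 2 of *ob/ob* was high to a lesser degree, and the other 4 arrays lay between 4.97 and 5.22. The log2 fold change of 0.86 ± 1.22 (adjusted p = 0.649) turned to -0.63 without array 1 of *ob/ob/Fsp27-/-* and was 0.04 without both high arrays. *Epcam*, an adhesion protein of epithelial cells, had the same 2 high arrays, with 7.89, 4.77 and 4.63 in *ob/ob/Fsp27-/-* GWAT and 4.54, 5.87 and 4.57 in *ob/ob* GWAT. So did *Rsph4a*, a gene of motile cilia, with 7.11, 4.35 and 4.32 in *ob/ob/Fsp27-/-* GWAT and 3.87, 4.91 and 3.90 in *ob/ob* GWAT. *Epcam* and *Rsph4a* were picked after their values were seen. The male gonadal fat pad adjoins the epididymis. The 14 measured genes of an epididymis list had means of 4.30, 4.36 and 4.17 in *ob/ob/Fsp27-/-* arrays. In *ob/ob* arrays the list means were 4.21, 4.11 and 4.21. Of these genes 0 had a mean above the median of all values and 0 were called at the thresholds used. Neither count need show a signal confined to 1 array of each genotype. *Adam7*, known from the epididymis, read 5.90, 4.03 and 4.00 in *ob/ob/Fsp27-/-* GWAT and 3.85, 4.61 and 4.03 in *ob/ob* GWAT, with its 2 highest values in the same arrays as *Mmp7*. Its log2 fold change was 0.48 (adjusted p = 0.532) with all arrays and 0.08 (adjusted p = 0.757) without both. The source of this signal was not tested. When both arrays were left out together, 7 Mmp, 6 Adam, 3 Adamts and 2 Timp genes were lower, and 1 Mmp, 1 Adam, 0 Adamts and 0 Timp genes were higher. The 7 lower Mmp genes then held *Mmp23*, at -0.60 (adjusted p = 0.0457), in place of *Mmp19*.

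**Figure D3:**
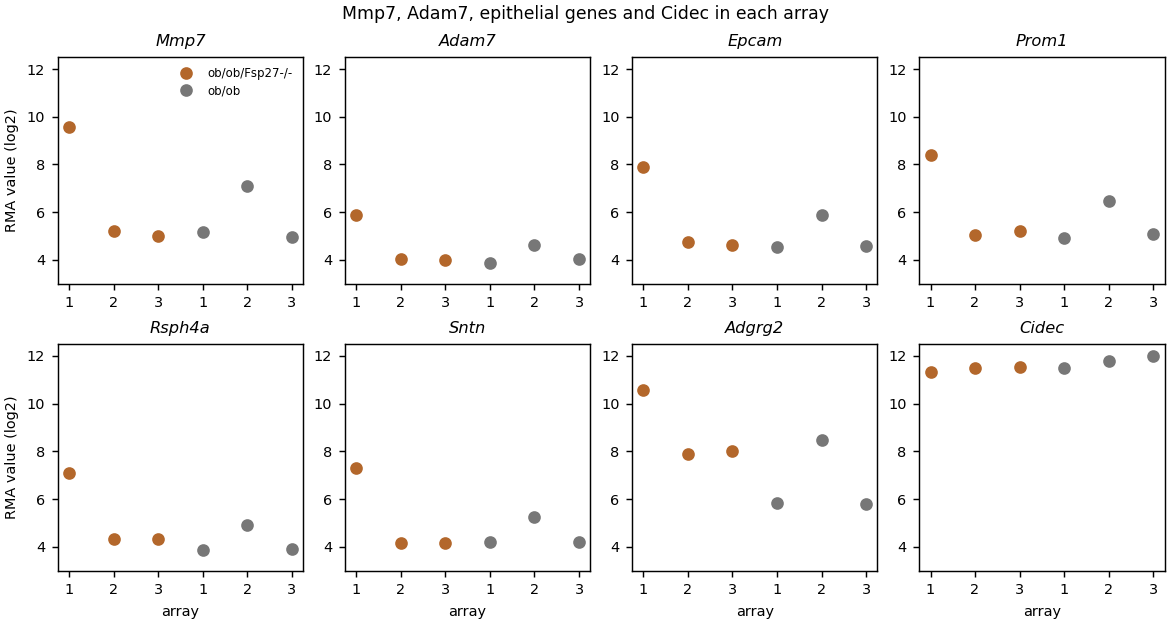
RMA values (log2) of *Mmp7*, *Adam7*, 5 genes of epithelial and ciliated cells and *Cidec* in each array, *ob/ob/Fsp27-/-* arrays 1 to 3 left of *ob/ob* arrays 1 to 3. *Mmp7* is at 9.56 in array 1 of *ob/ob/Fsp27-/-* and at 7.08 in array 2 of *ob/ob*, and *Cidec* stays between 11.34 and 11.98.

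Among Mmp genes outside the block, the membrane-bound collagenase *Mmp14*, which activates the Mmp2 precursor, and the gelatinase *Mmp2* were both lower. *Mmp14* read 8.05, 7.97 and 7.79 in *ob/ob/Fsp27-/-* GWAT and 9.26, 8.93 and 9.05 in *ob/ob* GWAT, a log2 fold change of -1.14 ± 0.11 (adjusted p = 0.000501). *Mmp2* read 10.24, 9.82 and 9.92 in *ob/ob/Fsp27-/-* GWAT and 10.88, 10.81 and 10.90 in *ob/ob* GWAT, with -0.87 ± 0.12 (adjusted p = 0.00191). Neither gene had overlapping genotypes. *Mmp19*, an enzyme of basement membrane and matrix proteins, read 9.01, 9.25 and 9.32 in *ob/ob/Fsp27-/-* GWAT and 10.44, 9.95 and 9.81 in *ob/ob* GWAT, with -0.87 ± 0.17 (adjusted p = 0.00864), and its adjusted p was 0.0591 when array 1 of *ob/ob/Fsp27-/-* and array 2 of *ob/ob* were both left out. *Mmp23*, a membrane-anchored member, had an adjusted p of 0.0234 and a log2 fold change of -0.47 that fell short of the fold threshold. It passed at -0.52 without array 1 of *ob/ob/Fsp27-/-* and at -0.55 without array 2 of *ob/ob*.

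*Mmp28* (epilysin) was the only Mmp gene called higher. It read 8.68, 8.86 and 8.96 in *ob/ob/Fsp27-/-* GWAT, against 7.09, 7.67 and 8.08 in *ob/ob* GWAT. All *ob/ob/Fsp27-/-* arrays were higher than all *ob/ob* arrays, and the *ob/ob* arrays spread over nearly 1 log2 unit with array 1 lowest. The log2 fold change was 1.22 ± 0.23 (adjusted p = 0.00754), and 0.96 (adjusted p = 0.00587) without array 1 of *ob/ob*. *Mmp16*, a membrane-type member with a mean below the median of all values, passed the p threshold at a log2 fold change of 0.28 (adjusted p = 0.0469), under the fold threshold. *Mmp11* (stromelysin 3) was not called, at -0.18 (adjusted p = 0.436). *Mmp9*, the second gelatinase, read 5.89, 5.85 and 5.72 in *ob/ob/Fsp27-/-* GWAT and 5.51, 5.51 and 5.82 in *ob/ob* GWAT, so the genotypes overlapped (log2 fold change 0.20, adjusted p = 0.220). *Mmp17*, *Mmp21*, *Mmp24* and *Mmp25* were also uncalled with means below the median of all values.

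**Figure D4:**
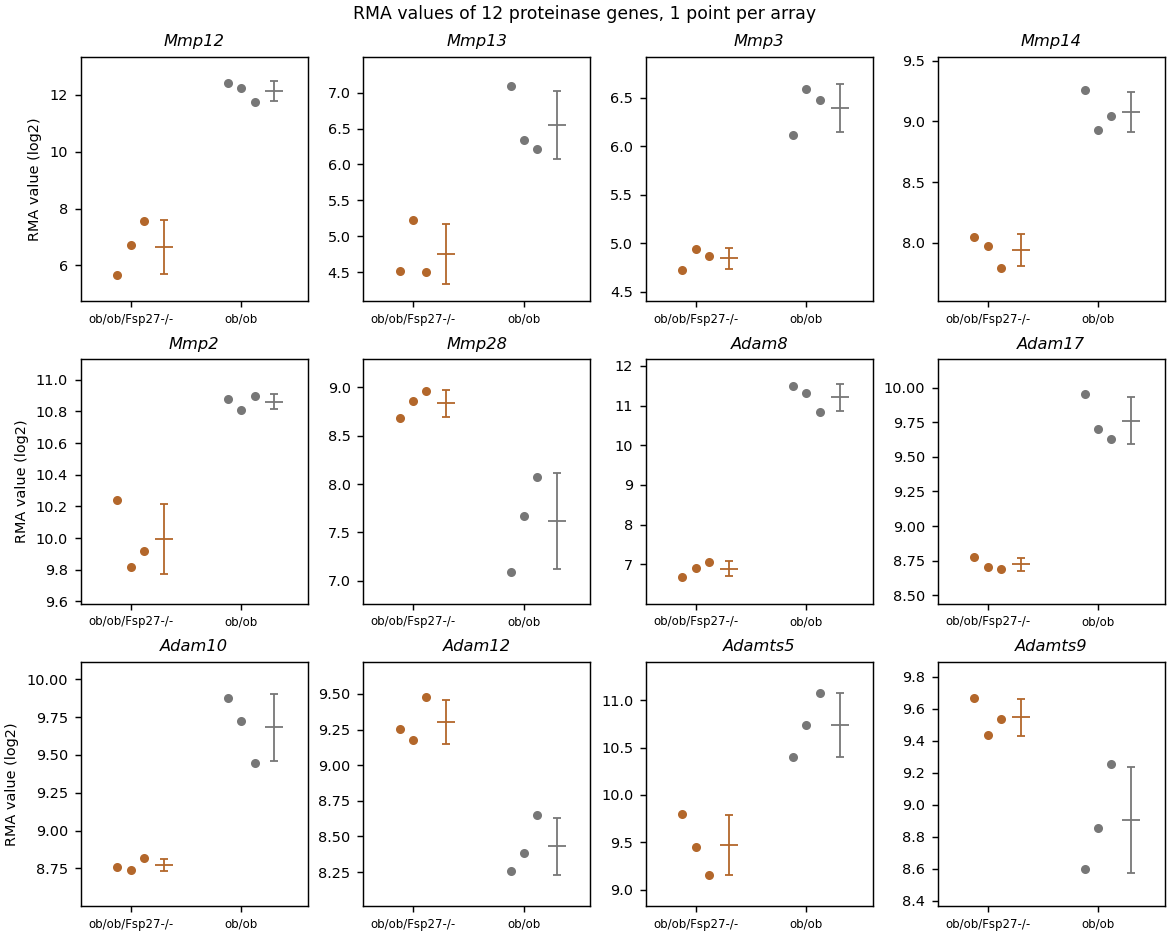
RMA values (log2) of 12 proteinase genes, 1 point per array, *ob/ob/Fsp27-/-* left of *ob/ob*, with the mean and SD (n = 3) beside the points and a separate vertical scale for each gene. *Mmp28*, *Adam12* and *Adamts9* are higher in *ob/ob/Fsp27-/-* GWAT and the other 9 genes are lower.

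*Adam8*, a sheddase of leukocytes, led the Adam family. It read 6.69, 6.90 and 7.06 in *ob/ob/Fsp27-/-* GWAT, against 11.48, 11.32 and 10.83 in *ob/ob* GWAT. The genotypes did not overlap, with an SD of 0.19 in *ob/ob/Fsp27-/-* and 0.34 in *ob/ob* (n = 3 each). The log2 fold change was -4.33 ± 0.18 (adjusted p = 2.57e-05), a 20.1-fold difference, and this adjusted p was the smallest among the 78 members.

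The 2 broadly expressed sheddases were both lower. *Adam17*, which releases TNF and many receptors, read 8.78, 8.70 and 8.69 in *ob/ob/Fsp27-/-* GWAT and 9.95, 9.70 and 9.63 in *ob/ob* GWAT, a log2 fold change of -1.04 ± 0.10 (adjusted p = 0.000463). *Adam10*, which cuts Notch receptors among others, read 8.76, 8.74 and 8.82 in *ob/ob/Fsp27-/-* GWAT and 9.88, 9.72 and 9.45 in *ob/ob* GWAT, with -0.91 ± 0.12 (adjusted p = 0.0015). In both genes the *ob/ob/Fsp27-/-* arrays lay within 0.1 log2 units of each other and below all *ob/ob* arrays.

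*Adam19*, a catalytic member of the meltrin group, read 7.69, 7.49 and 7.59 in *ob/ob/Fsp27-/-* GWAT and 8.56, 8.73 and 8.44 in *ob/ob* GWAT, with a log2 fold change of -0.98 ± 0.10 (adjusted p = 0.000575). Its close relative *Adam12* (meltrin alpha, known from adipose and muscle development) went the other way. *Adam12* read 9.26, 9.18 and 9.48 in *ob/ob/Fsp27-/-* GWAT and 8.26, 8.38 and 8.65 in *ob/ob* GWAT, with 0.87 ± 0.13 (adjusted p = 0.00262). The genotypes did not overlap in either gene. *Adam15* (metargidin) was lower at -0.60 ± 0.09 (adjusted p = 0.00326), and *Adam9* had an adjusted p of 0.00686 at -0.42, under the fold threshold. *Adam15* fell short of that threshold, at -0.39, with housekeeping centring.

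The remaining 2 lower Adam genes lost their calls in some alternatives. *Adam22*, a non-catalytic receptor known from neurons, read 5.76, 5.55 and 5.80 in *ob/ob/Fsp27-/-* GWAT and 6.13, 6.77 and 6.32 in *ob/ob* GWAT (-0.71 ± 0.17, adjusted p = 0.0186). *Adam5*, known from mouse testis, read 4.17, 3.99 and 3.93 in *ob/ob/Fsp27-/-* GWAT and 4.39, 4.88 and 4.67 in *ob/ob* GWAT (-0.62 ± 0.14, adjusted p = 0.0138). Both means were below the median of all values, and *Adam5* did not reach the 30th percentile of all values, 4.89, in any array. Without array 2 of *ob/ob/Fsp27-/-*, the adjusted p was 0.0717 for *Adam22* and 0.0526 for *Adam5*, and *Adam22* was also lost, with an adjusted p of 0.0589, without array 1 of *ob/ob/Fsp27-/-* and array 2 of *ob/ob* together. Both missed the fold threshold with housekeeping centring, at -0.49 for *Adam22* and -0.41 for *Adam5*.

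Of the other Adam genes with a mean above the median of all values, *Adam23* was at -0.30 (adjusted p = 0.121), *Adam33* at -0.05 (adjusted p = 0.695), *Adam11* at 0.28 (adjusted p = 0.237) and *Adam4* at 0.36 (adjusted p = 0.0601). *Adam4* passed at 0.57 with housekeeping centring. A further 21 Adam genes, with means of 3.03 to 6.04, were uncalled at log2 fold changes of -0.07 to 0.48. These include many genes known from testis and sperm, such as *Adam2*, *Adam3*, *Adam18* and *Adam32*. *Adam26a* and *Adam26b*, *Adam34* and *Adam34l*, and *Adam6a* and *Adam6b* are near copies whose probes may share signal, so their values are uncertain, and 2 probesets that carry several symbols with a member among them were not called.

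In the Adamts family the 3 lower genes act on proteoglycans or procollagen. *Adamts5*, an aggrecanase that also cuts versican, read 9.79, 9.45 and 9.16 in *ob/ob/Fsp27-/-* GWAT and 10.40, 10.74 and 11.07 in *ob/ob* GWAT, with a log2 fold change of -1.27 ± 0.21 (adjusted p = 0.00431). *Adamts14*, a procollagen N-proteinase, read 6.42, 6.43 and 6.26 in *ob/ob/Fsp27-/-* GWAT and 7.24, 6.95 and 6.97 in *ob/ob* GWAT, with -0.68 ± 0.11 (adjusted p = 0.0033). Neither gene had overlapping arrays, and *Adamts14* was at -0.47 with housekeeping centring, under the fold threshold. *Adamts15*, a versican-cutting member, read 6.86, 6.58 and 6.51 in *ob/ob/Fsp27-/-* GWAT and 7.51, 6.98 and 7.30 in *ob/ob* GWAT, with -0.61 ± 0.16 (adjusted p = 0.0237). Its adjusted p was 0.0827 without array 2 of *ob/ob/Fsp27-/-*, 0.0747 without array 3 of *ob/ob/Fsp27-/-*, 0.0624 without array 1 of *ob/ob*, 0.0596 without array 3 of *ob/ob* and 0.0630 with array weights. With housekeeping centring it was at -0.40 (adjusted p = 0.0595) and lost its call as well.

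*Adamts9*, a versican-cutting enzyme of vessels and stroma, was the only Adamts gene called higher. It read 9.67, 9.44 and 9.54 in *ob/ob/Fsp27-/-* GWAT and 8.60, 8.86 and 9.25 in *ob/ob* GWAT, with a log2 fold change of 0.64 ± 0.17 (adjusted p = 0.0254). The genotypes did not overlap, and array 3 of *ob/ob* came within 0.2 log2 units of the lowest *ob/ob/Fsp27-/-* array. Leaving out any single array except array 3 of *ob/ob* lost the call, with adjusted p values of 0.0716, 0.0564 and 0.0657 without arrays 1, 2 and 3 of *ob/ob/Fsp27-/-* and of 0.0552 and 0.0849 without arrays 1 and 2 of *ob/ob*. All 6 probesets of *Adamts9* were called higher, at log2 fold changes of 0.64 to 0.96, although probesets of a gene share the same RNA. Of the 16 probesets of *Adamts3* and the 5 of *Adamts17*, 0 were called in the limma fit, and the genes themselves had adjusted p values of 0.681 and 0.0761.

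The remaining Adamts genes were not called with all arrays. *Adamts1* had an adjusted p of 0.0307 at -0.39, and *Adamts4* an adjusted p of 0.0924 at -0.29. *Adamts12*, at -0.47 (adjusted p = 0.159), was called at -0.68 (adjusted p = 0.0436) without array 1 of *ob/ob*. *Adamts10* and *Adamts7* were at -0.10 and -0.07 and changed sign with housekeeping centring. A further 7 Adamts genes with means of 4.94 to 5.90 were uncalled, with log2 fold changes of -0.07 to 0.30.

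The inhibitors split into 2 lower and 2 uncalled genes. *Timp1*, the inducible inhibitor, read 5.98, 5.94 and 6.12 in *ob/ob/Fsp27-/-* GWAT, against 8.86, 8.61 and 9.42 in *ob/ob* GWAT. All *ob/ob* arrays lay more than 2 log2 units above all *ob/ob/Fsp27-/-* arrays. The log2 fold change was -2.95 ± 0.20 (adjusted p = 0.000112). The *ob/ob/Fsp27-/-* mean, 6.01, was just below the median of all values, where signal over background is small. *Timp2*, which inhibits Mmp2 and takes part in its activation by Mmp14, read 10.30, 10.07 and 9.91 in *ob/ob/Fsp27-/-* GWAT and 11.41, 11.29 and 11.11 in *ob/ob* GWAT, with -1.18 ± 0.13 (adjusted p = 0.000652).

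*Timp3*, the matrix-bound inhibitor that also blocks Adam17, read 10.14, 10.09 and 10.30 in *ob/ob/Fsp27-/-* GWAT and 9.33, 10.32 and 10.74 in *ob/ob* GWAT. *Timp4*, known from adipose tissue and heart, read 10.23, 10.31 and 10.43 in *ob/ob/Fsp27-/-* GWAT and 8.47, 10.13 and 10.15 in *ob/ob* GWAT. In both genes array 1 of *ob/ob* was low. The *Timp4* arrays did not overlap, but the adjusted p was 0.247 at a log2 fold change of 0.74 ± 0.42. Without array 1 of *ob/ob* the fold change of *Timp4* was 0.19 and that of *Timp3* was -0.35 (adjusted p = 0.150), against 0.05 ± 0.32 (adjusted p = 0.929) with all arrays. The adipocyte and endothelial marker lists were also lowest in that array, at 10.83 and 8.09, against 11.28 and 8.48 in array 2 and 11.51 and 8.55 in array 3 of *ob/ob*. The part of cell composition in these 2 readings was not tested.

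**Figure D5:**
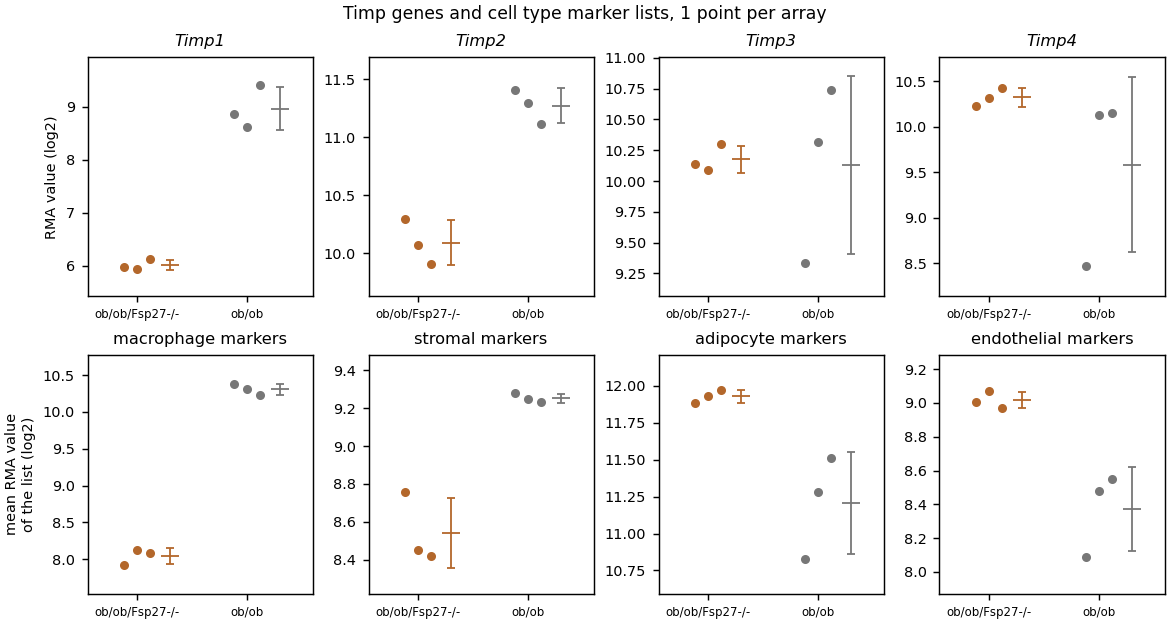
Upper panels, RMA values (log2) of the 4 Timp genes, and lower panels, mean RMA values (log2) of 4 cell type marker lists, 1 point per array with mean and SD (n = 3) beside, *ob/ob/Fsp27-/-* left of *ob/ob*. *Timp1* and *Timp2* are lower in *ob/ob/Fsp27-/-* GWAT, and array 1 of *ob/ob* is the low point at 8.47 for *Timp4* and at 10.83 for the adipocyte markers.

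Markers of several cell types differed between the genotypes as well. Their counts stand beside 10.8% lower and 9.58% higher among all genes measured. Among genes with a mean above the median of all values, 1908 of 11332 were lower and 1765 higher. Macrophage markers were lower in 19 of 20 genes and higher in 0, with list means of 7.92 to 8.12 in *ob/ob/Fsp27-/-* arrays against 10.23 to 10.38 in *ob/ob* arrays. Their log2 fold changes had a median of -2.11 and reached -3.61 (*Itgax*). The list for lipid-associated macrophages had 10 lower and 0 higher of 14, with the largest decreases at -4.94 (*Atp6v0d2*) and -4.33 (*Gpnmb*). The list for mast cells had 5 lower and 0 higher of 10. Stromal markers were lower in 8 of 15 genes and higher in 1, with list means of 8.42 to 8.75 against 9.23 to 9.28. Adipocyte markers were higher in 7 of 13 genes, endothelial markers in 7 of 12 and smooth muscle and pericyte markers in 7 of 11, with 0 lower in each. Neutrophil markers had 1 of 11 higher, and 0 of 10 T and B cell genes were called in the limma fit. In whole tissue, fewer cells of a type and less RNA per cell cannot be told apart, and the part of these markers in the results of the proteinases was not tested.

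The activators of the proteinases were lower more often than higher. Of 17 measured genes for proprotein convertases, plasminogen activators and activating proteases, 8 were lower and 1 higher. The shares over all genes measured were 10.8% lower and 9.58% higher. Of the 8 lower genes, *Ctsk* is also in the list for lipid-associated macrophages, and *Cma1*, *Mcpt4* and *Tpsb2* are in the mast cell list. *Plau* (urokinase, which makes plasmin from plasminogen) read 7.91, 8.17 and 8.10 in *ob/ob/Fsp27-/-* GWAT and 10.20, 10.20 and 9.85 in *ob/ob* GWAT, and its receptor *Plaur* was lower as well, at -1.76 (adjusted p = 0.00594). *Ctsk*, a collagen-cutting cathepsin, was lower at -3.90 (adjusted p = 3.87e-05), and the mast cell protease *Mcpt4* at -2.11 (adjusted p = 0.0101). *Pcsk6*, a proprotein convertase, was higher at 0.78 (adjusted p = 0.00821). *Furin*, the convertase that removes the pro-domain of many Adam proteins and of Mmp14, was not called at 0.18 (adjusted p = 0.160).

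Of 18 other protease inhibitors and related proteins 5 were lower and 2 higher, beside 10.8% and 9.58% of all genes measured. The lower genes included *Serpinb1a*, an inhibitor of neutrophil proteases, at -1.51 (adjusted p = 0.00389), and *Pcolce* and *Pcolce2*, which enhance procollagen C-proteinase rather than inhibit it, at -1.25 and -1.31. *Wfdc1* and *Papln* (papilin) were higher at 0.63 and 0.54. *Reck*, a membrane-anchored inhibitor of Mmp enzymes, was not called at -0.18 (adjusted p = 0.267). Among 16 regulators of Adam10 and Adam17, 3 were lower and 2 higher, beside 10.8% and 9.58% of all genes measured. The lower genes were *Mad2l1* at -1.54, *Erp44* at -0.57 and *Itgb1* at -0.51, and *Pacsin3* was higher at 0.52. *Tspan15*, a tetraspanin partner of Adam10, read 8.77, 8.70 and 8.78 in *ob/ob/Fsp27-/-* GWAT and 7.84, 8.02 and 8.23 in *ob/ob* GWAT, a log2 fold change of 0.72 (adjusted p = 0.00297), opposite in direction to *Adam10*. Other tetraspanins of the list were uncalled on both sides of 0. *Tspan5*, *Tspan14* and *Tspan33* were at -0.34, -0.31 and -0.19, and *Tspan10* and *Tspan17* at 0.08 and 0.47. *Rhbdf2* (iRhom2, which brings Adam17 to the cell surface) was not called at 0.02 (adjusted p = 0.918).

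Of 40 surface proteins known to be shed, 14 were lower and 3 higher, beside 10.8% and 9.58% of all genes measured. Of these 40 genes 30 had a mean above the median of all values. *Cd44* (a hyaluronan receptor) was lower at -3.40 (adjusted p = 3.32e-05), *Trem2* at -2.14 (adjusted p = 0.000108), and *Csf1r* and *Tnfrsf1b* both at -1.74. Of the lower genes, *Trem2*, *Csf1r* and *Mertk* are also in the macrophage lists, and *Icam1* is in the stromal list. *Klb* (beta-klotho, the FGF21 co-receptor) was higher at 2.38 (adjusted p = 0.000302) and *Insr*, the insulin receptor, at 0.64 (adjusted p = 0.000872). Also higher was *Cdh5*, at 0.64 (adjusted p = 0.0296), which is in the endothelial list too. *Tnf*, the substrate after which Adam17 was named, read 5.44, 5.92 and 5.38 in *ob/ob/Fsp27-/-* GWAT and 6.54, 5.76 and 6.22 in *ob/ob* GWAT, with overlapping arrays (adjusted p = 0.0895).

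Matrix proteins that these enzymes act on were lower in 13 of 31 genes and higher in 2, beside 10.8% and 9.58% of all genes. Of the lower genes, *Col1a1*, *Col3a1* and *Lum* are also in the stromal list. *Vcan* (versican, cut by several Adamts enzymes) was lower at -2.07 (adjusted p = 0.00112), *Col3a1* at -1.66 (adjusted p = 0.000407) and *Fn1* (fibronectin) at -1.59 (adjusted p = 0.000505). *Ncan* and *Reln*, matrix proteins best known from brain, were higher at 1.41 and 0.83. Of 18 other metalloproteinases 5 were lower and 1 higher. *Anpep* (aminopeptidase N) was lower at -2.82 (adjusted p = 5.6e-05), *Cpe* at -2.40 (adjusted p = 0.00234), *Cpxm1* at -0.98 and *Ece2* at -0.83. The procollagen C-proteinase *Bmp1* was lower at -0.80 (adjusted p = 0.005), while *Enpep* (aminopeptidase A) was higher at 1.77 (adjusted p = 0.00909). Of 8 genes for Adamts-like and similar proteins without a protease domain or outside the families, 1 was lower and 2 were higher. The higher *Papln* is also counted among the other protease inhibitors.

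Among 23 factors of the AP-1, Ets, NF-kappaB and related groups 11 were lower and 1 higher, beside 10.8% and 9.58% of all genes measured. *Fos*, part of AP-1, read 5.57, 5.59 and 5.82 in *ob/ob/Fsp27-/-* GWAT and 7.83, 7.30 and 7.40 in *ob/ob* GWAT, with a log2 fold change of -1.85 (adjusted p = 0.000234). *Spi1* (PU.1, a factor of myeloid cells) read 7.15, 7.32 and 7.40 in *ob/ob/Fsp27-/-* GWAT and 10.62, 10.24 and 10.23 in *ob/ob* GWAT, with -3.08 (adjusted p = 2.71e-05). *Ets2* was higher at 0.54 (adjusted p = 0.0146). Whether these factors bear on the members was not tested.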

How the data were processed

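GWAT RNA of both genotypes was hybridised to 6 Affymetrix arrays. The deposited table holds log2 RMA values, for which the authors adjusted the background and normalized the arrays by quantiles. Versions of the authors' tools were not given in the sources used here, and their filter on detection above background was not repeated. Genotypes were taken from the sample labels.

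Of 34760 probesets, 22961 with at least 1 gene symbol were fitted with limma 3.58.1 under R 4.3.3 by lmFit and eBayes, with genotype as the sole term and p-values adjusted over all of them after Benjamini and Hochberg. Calls needed an adjusted p under 0.05 and a log2 change of 0.5 or more in either direction. The 102 probesets of the members with 1 symbol were reduced to the one of highest mean per gene. The procedure was tested on simulated data. All adjusted p values in the text are limma's. Arrays have no read depth, and 3 arrays per genotype limit the precision.

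The members and the gene lists, written from general knowledge, were chosen with earlier results of these data known. Genes named were every Timp gene, every called member, every uncalled member with a mean above the median of all values, members whose probesets differ and up to 4 called genes per list and direction, with the uncalled members below that median given as counts, ranges and names. The values of *Mmp8*, *Mmp1b*, *Mmp9*, *Mmp10*, *Mmp16*, *Adam7*, *Epcam*, *Rsph4a*, *Bmp1* and *Tnf* were given outside this rule, after they were seen. So were those of *Furin*, *Reck*, *Rhbdf2*, *Tspan5*, *Tspan10*, *Tspan14*, *Tspan17* and *Tspan33*. The names of *Cma1*, *Tpsb2*, *Col1a1*, *Mertk* and *Icam1*, and the genes and values of the closing observations, were also given outside it. Promoter windows, from 250 bases before to 50 after an annotated start, are RefSeq's for GRCm38.p6, and 48 members matched by symbol. Coordinates are those of that table. Patterns in the protein sequences were not analysed here. Alternatives were filters on low values, other sets of tested probesets, centring on medians or housekeeping genes, cyclic loess, intensity trend, robust eBayes, array weights, other thresholds on the fold change, averaging the probesets of a gene and leaving out arrays. Python 3.11.15 and matplotlib 3.10.9 made the figures.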

Additional observations from a re-analysis of the deposited data

How the results depend on the processing

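Over the alternatives, 39 named members gave 695 recomputed fold changes, of which 658 kept their direction and side of the thresholds, and 14 of the 22 called members kept both wherever they were tested. These counts leave out the other fold thresholds, and at a fold threshold of 1 the call was kept by 10 of the 22. Centring on housekeeping genes moved the median of all genes to 0.27, against 0.06, and gave 4 lower and 3 higher Adam genes and 1 lower and 2 higher Adamts genes, with *Mmp11* at 0.034, *Adam33* at 0.16, *Adamts10* at 0.11 and *Adamts7* at 0.14, all turned in sign. This centring adds the same amount to every gene, and of its 13 genes 2 were themselves lower and 1 (*Sdha*) higher. A filter at the median of all values removed *Mmp13*, *Mmp3* and *Mmp27* and left 4 lower Mmp genes. A fold threshold of 1 left 4 lower Mmp, 2 lower and 0 higher Adam, and 1 lower and 0 higher Adamts genes, with 1607 genes called in all, against 4068. Without a fold threshold 5988 genes were called in all, with 8 Mmp, 8 Adam and 4 Adamts genes lower (*Mmp23*, *Adam9* and *Adamts1* added) and 2 Mmp genes higher (*Mmp16* added). Leaving out arrays gave 7 to 8 lower and 1 to 1 higher Mmp, 5 to 7 lower and 1 to 1 higher Adam, 2 to 3 lower and 0 to 1 higher Adamts, 2 to 2 lower and 0 to 0 higher Timp genes, and 3337 to 4466 genes in all. These ranges include leaving out array 1 of *ob/ob/Fsp27-/-* and array 2 of *ob/ob* together, chosen after seeing the data, which left 0 higher Adamts genes. *Timp3* was at -0.035 with array weights. With arrays left out, 4 uncalled genes among the 39 named members changed sign. *Timp3* spanned -0.35 to 0.35, *Mmp7* -0.63 to 1.65, *Adamts3* -0.014 to 0.14 and *Adam33* -0.13 to 0.0052. Other uncalled members, with means below the median of all values, changed sign as well. *Adam7* was among them, at -0.15 without array 1 of *ob/ob/Fsp27-/-*. The cause of these moves was not tested. No paired analysis was possible because the labels give the genotypes no shared replicate numbers. The arrays have no depth, and signal over background is small for members low on the scale.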

Other observations

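*Mmp7* had the largest excess of array 1 of *ob/ob/Fsp27-/-* over the higher of the other 2 arrays of its genotype among all 19937 genes, 4.34 log2 units, and ranked 11 by the excess of array 2 of *ob/ob*, 1.91 log2 units. An excess of at least 1 log2 unit was found in both arrays for 13 genes, in array 1 of *ob/ob/Fsp27-/-* alone for 161 and in array 2 of *ob/ob* alone for 41. The 13 genes were *Mmp7*, *Plet1*, *Dcdc2a*, *Adcy8*, *Prom1*, *Epcam*, *Sntn*, *Rsph4a*, *Ccl28*, *Adgrg2*, *Atp1b1*, *Slc38a3* and *Fbp1*, several of them known from epithelia or motile cilia. *Prom1*, a protein of apical membrane protrusions, read 8.38, 5.03 and 5.23 in *ob/ob/Fsp27-/-* GWAT and 4.92, 6.45 and 5.10 in *ob/ob* GWAT. *Adgrg2*, a receptor known from the efferent ducts and epididymis, read 10.58, 7.89 and 8.04 in *ob/ob/Fsp27-/-* GWAT and 5.83, 8.49 and 5.79 in *ob/ob* GWAT. The rule and these genes were chosen after the values were seen, and the source of the signal was not tested.

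The median SD between arrays over the 78 members was 0.11 in *ob/ob/Fsp27-/-* and 0.12 in *ob/ob* GWAT. An SD above 0.5 was found for 3 members in *ob/ob/Fsp27-/-* GWAT (*Mmp7*, *Adam7* and *Mmp12*) and for 3 members in *ob/ob* GWAT (*Mmp7*, *Timp4* and *Timp3*).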
